A study of Schizosaccharomyces pombe with 6 samples.

Results

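The subunits of the CCT chaperonin (also called TRiC) were followed at the mRNA level in *rae1-167* fission yeast cells, through the genes *cct1* to *cct8*. Members were the probe sets whose annotation names 1 *Schizosaccharomyces pombe* gene with one of these symbols. All 8 of 8 had such a probe set, 1 each, among 2919 *S. pombe* features tested. Cells of the *rae1-167* mutant in strain background 972, whose *rae1* gene, needed for export of mRNA from the nucleus, is temperature-sensitive, were grown in YE4S medium at 25°C or kept at 36°C for 1 h. Total RNA of 3 independent experiments per temperature was hybridised, 1 array per sample and 6 in all, and both groups carry the same allele. No wild type arrays were analysed here, so effects of temperature and of the mutation cannot be told apart. Each array had the same amount of total RNA labelled, and the authors then scaled the arrays globally. A signal thus gives an mRNA relative to the other signals of its array and not an amount per cell. Fewer cells holding an mRNA cannot be told apart from less of it per cell.

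CCT is the chaperonin of the eukaryotic cytosol. It is made of a pair of stacked rings, each holding one copy of every subunit, and it encloses newly made proteins and uses ATP to fold them. Actin and the tubulins need it to fold, as do many proteins with WD repeats. Prefoldin hands it unfolded actin and tubulin, and tubulin cofactors take over the tubulins it releases. Since every subunit has its own place in the ring, the levels of the 8 mRNAs can be compared in how far they moved together.

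On the deposited scale the mRNAs of all 8 subunits were lower at 36°C than at 25°C, although *cct8* turned to 0.28, which did not pass, when arrays were centred on their median. The decrease was 1.39-fold for *cct8*, the smallest, and 2.67-fold for *cct5*, the largest, and the median log2 fold change was -1.02. All 8 passed limma's test at an adjusted p under 0.05, where 51.9% of the 2919 features were called lower, 12.1% higher and thus 64.0% in either direction. A decrease of at least 2-fold was found for 4 of the 8 (*cct3*, *cct5*, *cct6* and *cct7*), and for 39.8% of all features. The median of all features was itself -0.66. Against that median, the subunits differed by values from -0.75 for *cct5* to 0.19 for *cct8*, and their changes lay between percentiles 29.8 and 55.1 of those of all features, counted from the largest decrease. The subunits thus lay within the bulk of the features and not at its edge. For each subunit, the highest 36°C signal lay below the lowest 25°C signal, which was so for 56.4% of all features.

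**Figure D1:**
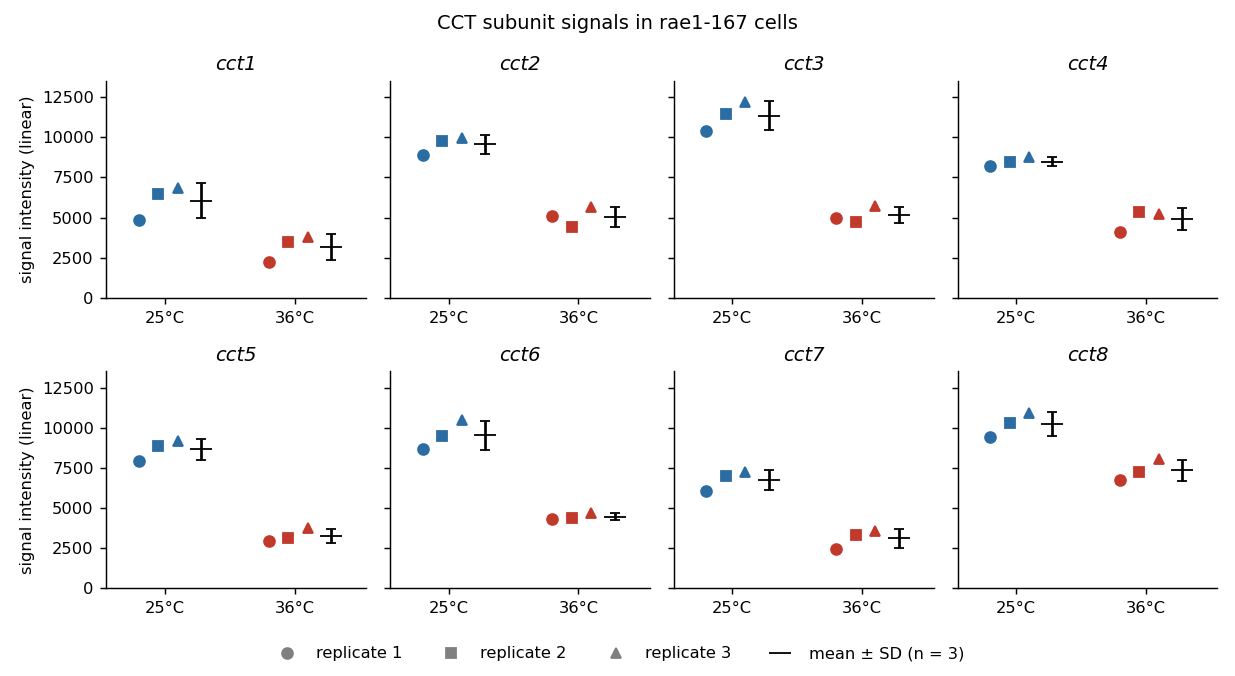
Signal intensity (linear scale, from 0) of the 8 CCT subunit genes on each array, with 25°C in blue, 36°C in red, a symbol per replicate number and the mean ± SD of 3 arrays beside them. In every panel the 3 signals at 36°C lie below the 3 at 25°C, with the narrowest gap for *cct1* (4821 against 3803), whose arrays also have the widest spread.

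In the ring, *S. cerevisiae* CCT has a side whose subunits bind ATP with higher affinity, made of CCT5, CCT2, CCT4 and CCT1, and the genes are taken here in that order. The signal of *cct5* (SPAC1420.02c) was 7918, 8886 and 9156 in replicates 1, 2 and 3 at 25°C, and 2932, 3107 and 3732 at 36°C. Its 36°C mean was 37.6% of its 25°C mean, and the log2 fold change was -1.41 (limma, SE 0.14, adjusted p = 2.1e-04). No other subunit mRNA was lowered as far. The signal of *cct2* (SPAC1D4.04) was 8905, 9773 and 9980.3 at 25°C, against 5107, 4414 and 5651 at 36°C. The log2 fold change of *cct2* was -0.92 (limma, SE 0.13, adjusted p = 0.0012), and the call was lost after centring each array on its median (-0.16, adjusted p = 0.41). Here replicate 2 was the lowest array at 36°C, although it was not the lowest at 25°C.

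The signal of *cct4* (SPBC106.06) was 8198, 8475 and 8770.1 at 25°C, an SD of 3.38% of the mean, and 4102, 5369.5 and 5251 at 36°C. The 36°C arrays of *cct4* were thus more spread than the 25°C arrays, and its log2 fold change was -0.80 (limma, SE 0.14, adjusted p = 0.0028), a call lost after centring (-0.04, adjusted p = 0.83). The signal of *cct1* (SPBC12D12.03), whose product is the founding member TCP1 or CCT alpha, was 4821, 6477 and 6846 at 25°C, against 2234, 3469.6 and 3803 at 36°C. Replicate 1 was lowest at both temperatures, and the SD was 17.8% of the mean at 25°C and 26.1% at 36°C, the widest of the 8 genes. Its log2 fold change of -0.95 thus carried the largest error (limma, SE 0.25, adjusted p = 0.015), and it did not pass without replicate 2 at 25°C (adjusted p = 0.054 from limma) or without replicate 3 at 25°C (adjusted p = 0.059 from limma), nor after centring (-0.19, adjusted p = 0.26). These fits had no block, and with the replicate number as a block the SE of *cct1* was 0.10 (adjusted p = 7.4e-04 from limma).

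The other side of the ring, with lower affinity for ATP in *S. cerevisiae*, holds CCT3, CCT6, CCT8 and CCT7. The signal of *cct3* (SPBC1A4.08c) was 10412, 11447 and 12202 at 25°C, against 4994, 4738 and 5750.2 at 36°C. The log2 fold change of *cct3* was -1.14 (limma, SE 0.13, adjusted p = 4.0e-04). The signal of *cct6* (SPBC646.11) was 8679, 9461.5 and 10482 at 25°C, against 4305.5, 4357 and 4705 at 36°C. At 36°C its arrays were the closest of all subunits, with an SD of 4.88% of the mean, and the log2 fold change was -1.10 (limma, SE 0.12, adjusted p = 3.4e-04), or -0.33 after centring, where it did not pass (adjusted p = 0.068).

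The signal of *cct8* (SPBC337.05c) was 9439, 10308 and 10924 at 25°C, against 6775, 7212 and 8026 at 36°C. Its 36°C mean was 71.8% of its 25°C mean. The change of *cct8* was the smallest of the subunits, a log2 fold change of -0.48 (limma, SE 0.12, adjusted p = 0.013), and it did not pass without replicate 2 (adjusted p = 0.058 from limma) or replicate 3 (adjusted p = 0.050 from limma) at 25°C. The signal of *cct7* (SPBC25H2.12c) was 6047, 6964 and 7224 at 25°C, against 2446, 3335 and 3573 at 36°C. As for *cct1*, replicate 1 was well below the others at 36°C, and the log2 fold change of *cct7* was -1.13 (limma, SE 0.18, adjusted p = 0.0017).

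The 4 subunits of the side with higher affinity for ATP had log2 fold changes between -1.41 and -0.80 (median -0.94), and the 4 of the other side between -1.14 and -0.48 (median -1.11). The ranges of the sides overlap, and each side holds one end of the order of changes.

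The arrays of one temperature differed in the same direction for nearly all subunits. At 25°C, replicate 1 gave the lowest and replicate 3 the highest signal for 8 of 8 subunits. At 36°C, replicate 1 was the lowest for 6 subunits and replicate 2 for *cct2* and *cct3*, while replicate 3 was the highest for 7 and replicate 2 for *cct4*. The median signal of all *S. pombe* probe sets ran the same way, with 1939, 2435 and 2617 at 25°C, and 1146, 1395 and 1578.5 at 36°C. Within replicate numbers, the log2 ratio of 36°C to 25°C of *cct1* was -1.11, -0.90 and -0.85, and that of *cct5* was -1.43, -1.52 and -1.29. All ratios of this kind were below 0 for the 8 subunits. Replicate 1 has labels of another scheme than replicates 2 and 3. From replicates 2 and 3 alone, all 8 subunits were lower, where 60.2% of all features were, with log2 fold changes from -1.41 for *cct5* to -0.48 for *cct8*.

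The position of the subunits against all features depended on how the arrays were set against each other. After quantile normalization, which gives all arrays the same distribution and brought the median feature to -0.02, the subunits had log2 fold changes from -1.05 to -0.28, and 8 of 8 were lower, where 33.9% of all features were lower and 30.3% higher. Centring each array on its median, which brought the median feature to 0.10, raised every change, and then 3 of 8 were lower, where 34.5% of all features were lower and 39.6% higher. These were *cct5* (-0.65), *cct3* (-0.38, adjusted p = 0.048 from limma) and *cct7* (-0.36). After centring *cct8* was at 0.28 (adjusted p = 0.094 from limma) and *cct4* at -0.04. Of the 24 subunit signals at 25°C, 6 were over 10000, for *cct3*, *cct6* and *cct8*, and 0 of those at 36°C. The highest signal of any probe set was between 18564 and 19751 on the arrays.

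**Figure D2:**
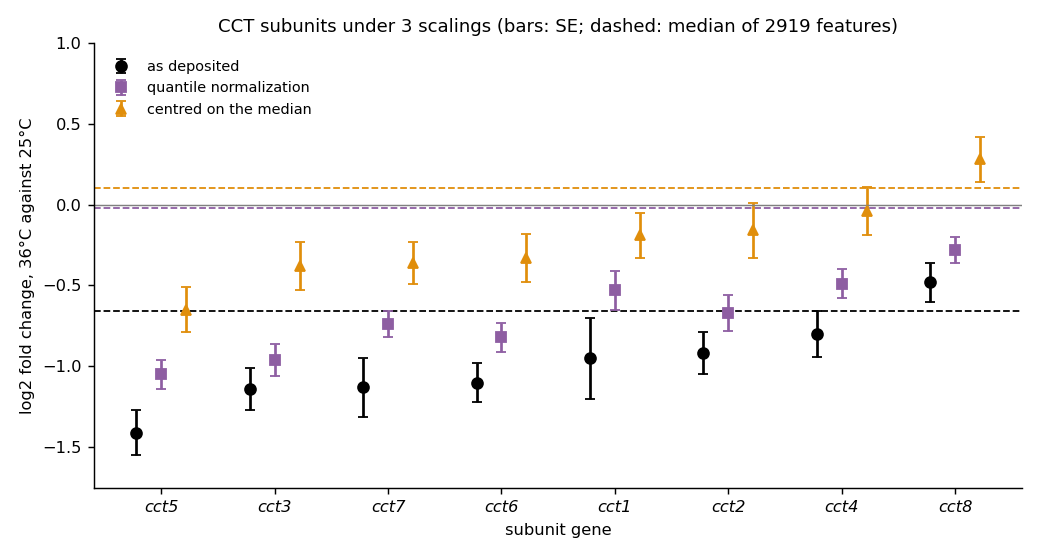
Log2 fold change of each subunit gene (36°C against 25°C), ordered by its value on the deposited scale, under 3 scalings, with bars for the SE from limma and dashed lines for the median of all 2919 features under the same scaling. All 8 subunits are below 0 as deposited and after quantile normalization, and *cct8* is above 0 (0.28) after centring on the median.

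In the plot of change against brightness, the 8 subunits lay close to each other. The part of probe brightness in the size of their changes was not tested. Some RNA quality controls moved with temperature. The ratio of 5′ to 3′ signal, which falls when RNA is degraded or incompletely copied, was lower on every 36°C array for 3 of 7 control genes, namely *srb4* (a log2 difference of -1.43), SPCC338.15 (-0.61) and *ura4* (-0.33). For *gpd3*, *act1*, *rip1* and *tfIID* the differences were -0.16, -0.03, 0.17 and 0.12. The part of RNA quality in the decrease of the subunit mRNAs was not tested. The spike-in controls, the bio and cre probe sets of the array, differed by 0.01 on the log2 scale. Scaling to them left 8 of 8 subunits lower, where 53.4% of all features were. This scaling nearly repeats the deposited scale (subunit median -1.03 against -1.02), so its count is no separate support for the decrease. Whether these controls follow the amount or quality of the RNA was not tested.

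**Figure D3:**
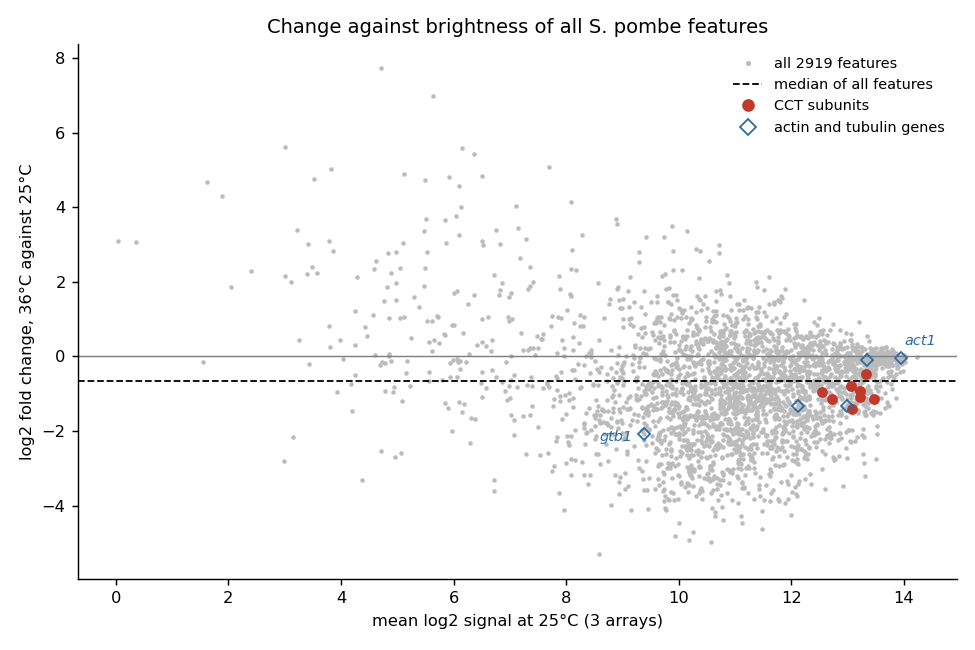
Log2 fold change (36°C against 25°C) against the mean log2 signal at 25°C for all 2919 *S. pombe* features (grey), with the 8 CCT subunits in red, the 5 actin and tubulin genes as open blue diamonds and the median of all features (-0.66) dashed. The subunits lie together toward the bright side, 7 of 8 below the median, while *act1* lies near 0 and *gtb1* far below.

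The array also carries *S. cerevisiae* probe sets for the same complex, which serve as a measure of unspecific signal. The 7 *S. cerevisiae* probe sets named CCT2 to CCT8 gave signals from 0.4 to 26.7, with a median of 4.05. Of these, 6 were never above background, taken as percentile 90 over all *S. cerevisiae* probe sets of an array (at most 21.3), and CCT2 was above it on 4 of 6 arrays. Each *S. pombe* subunit was above background on all 6 arrays, with signals of at least 2234.

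The balance among the subunits was measured as the log2 signal of each subunit minus the mean of the other 7 on the same array, which a factor common to an array cannot change. Probe sets differ in brightness per mRNA, so only the change of this value between the temperatures is read. This change follows from the log2 fold changes given above and is not a separate measurement. How often the temperatures would not overlap in other sets of genes was not tested. The balance of *cct8* was 0.30, 0.25 and 0.27 at 25°C, against 0.93, 0.84 and 0.82 at 36°C, an increase of 0.59 relative to the other subunits. The balance of *cct5* was 0.01, 0.01 and -0.02 at 25°C, against -0.45, -0.55 and -0.45 at 36°C, a change of -0.48. The changes of both were many times the SD within a temperature, which was at most 0.06, and their temperatures did not overlap.

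Other subunits shifted less. The balance of *cct4* changed by 0.22, that of *cct3* by -0.17 and that of *cct7* by -0.16, all without overlap, although for *cct4* the highest 25°C value was 0.07 and the lowest 36°C value 0.10. The balance of *cct6* changed by -0.12, that of *cct2* by 0.08 and that of *cct1* by 0.04, and their temperatures overlapped. In the exact permutation test (two-sided), 5 of 8 subunits gave p = 0.10, the smallest p that 3 arrays against 3 allow, and p = 0.16 after Benjamini-Hochberg adjustment over the 8. This design thus cannot reach a p of 0.05 for a single subunit. After quantile normalization 4 subunits did not overlap, and the changes of *cct8* and *cct5* were 0.48 and -0.41.

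In the order of their changes, from *cct5* through *cct3*, *cct7*, *cct6*, *cct1*, *cct2* and *cct4* to *cct8*, neighbours are the closest by construction, so their differences are given as a description with no test. The log2 ratio of 1 subunit to the next changed without overlap between the temperatures for *cct5* to *cct3* (-0.28) and for *cct4* to *cct8* (-0.32). For the other 5 neighbouring pairs the change, from -0.14 to -0.01, was within the spread of the arrays. Between the ends of the order, *cct5* and *cct8*, the log2 ratio went from -0.24 at 25°C to -1.18 at 36°C.

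**Figure D4:**
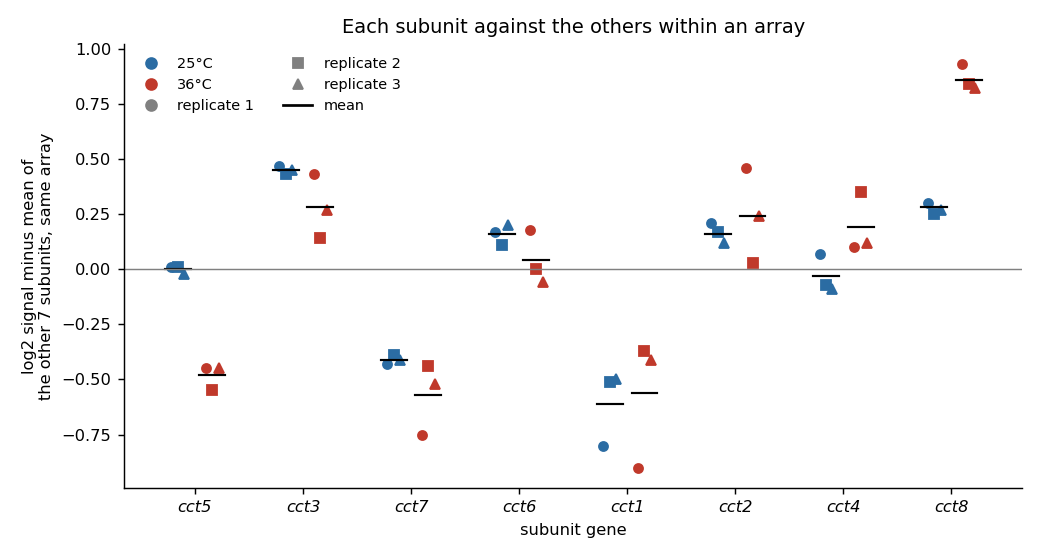
Log2 signal of each subunit minus the mean of the other 7 subunits on the same array, for 25°C (blue) and 36°C (red), with a symbol per replicate number and a line at the mean of 3 arrays, ordered by the change. The 36°C arrays of *cct8* lie 0.59 above and those of *cct5* 0.48 below their 25°C arrays, and the temperatures overlap for *cct6*, *cct1* and *cct2*.

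Across the 6 arrays the log2 signals of pairs of subunits had Pearson correlations from 0.869 to 0.997 (28 pairs, median 0.971). These points share the contrast of temperatures and the brightness of each array, so the values describe these arrays only. The genes whose log2 signals were most like the mean of the subunits, among 2836 genes above background on all arrays, were *mcm2* (replicative helicase, r = 0.9997), *ecm29* (proteasome-associated protein, r = 0.9997), *adl1* (DNA ligase, r = 0.9996), *alg9* (mannosyltransferase, r = 0.9994) and *jmj4* (r = 0.9993). Their shape was alike but their size was not, since their log2 fold changes were -3.18, -2.26, -2.87, -1.90 and -2.97. Of the candidates, 353 had a correlation over 0.99.

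Genes next to the subunit genes did not share one direction. In the RefSeq annotation (assembly ASM294v3), 10 of the 16 protein-coding neighbours had a named probe set. Of these, 3 were lower, 1 was higher and 6 did not pass, with a median log2 fold change of -0.44. Of all features, 51.9% were lower and 12.1% higher. The genes on both sides of *cct1*, *cdm1* and *pck2*, were at -2.88 and -2.46, and *spt7*, beside *cct7*, was at -2.99. In contrast *cwf15*, beside *cct8*, was at 1.82. These 4 were named as the neighbours that passed the test.

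The measured prefoldin subunits were lower too. Of 6 prefoldin genes, 2 had a named probe set, and both were lower by limma, where 51.9% of all features were. The signal of *pac10*, prefoldin subunit 3, lay between 2131 and 2579 at 25°C and between 422 and 686 at 36°C, so that the log2 fold change was -2.15 (limma, SE 0.20, adjusted p = 1.9e-04). For *bob1*, prefoldin subunit 5, it lay between 3041 and 3844 at 25°C and between 1414 and 2472 at 36°C, so that the log2 fold change was -0.91 (limma, SE 0.24, adjusted p = 0.016). The call of *bob1* was lost after quantile normalization (-0.28), after centring (-0.14), and without replicate 3 at 25°C or replicate 2 at 36°C. The thioredoxin-like gene *txl1* was the only measured gene of 4 listed as co-factors, and whether it acts with CCT was not tested. The log2 fold change of *txl1* was 0.05 (limma, SE 0.14, adjusted p = 0.77), and it was higher after quantile normalization (0.35) and centring (0.82).

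Among the clients, the mRNAs of 3 tubulins were lower, but those of actin and beta-tubulin did not pass the test. Of all features, 51.9% were lower. The signal of *act1*, actin, was 15783 ± 651 (SD, n = 3) at 25°C, against 15398 ± 571 at 36°C, so that the log2 fold change was -0.04 (SE 0.10). That of *nda3*, beta-tubulin, was 10396 ± 284 at 25°C, against 9799 ± 1728 at 36°C (-0.10, SE 0.15). The signals of both genes overlapped between the temperatures. Both were brighter than the 3 lower tubulins, and *act1* lay near the highest signal of any probe set (18564 to 19751). The part of probe brightness in this contrast was not tested. After centring, *act1* (0.73) and *nda3* (0.66) were higher by limma. The alpha-tubulin genes *nda2* and *atb2* had log2 fold changes of -1.33 (SE 0.17) and -1.32 (SE 0.35). For *nda2* the signal was 8122 ± 638 at 25°C, against 3260.3 ± 624 at 36°C, without overlap. The call of *atb2* (adjusted p = 0.016 from limma) was lost without replicate 2 or 3 at 25°C and after centring (adjusted p = 0.052 from limma). The gamma-tubulin gene *gtb1* was at -2.07 (limma, SE 0.14, adjusted p = 6.0e-05), or -0.48 after quantile normalization.

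Of the 5 tubulin cofactor genes, which act on tubulin after CCT, 3 were higher, 1 was lower and 1 did not pass. Of all features, 12.1% were higher and 51.9% lower. The signal of *alp1*, cofactor D, was 1626 ± 268 (SD, n = 3) at 25°C, against 3763 ± 430 at 36°C, so that the log2 fold change was 1.22 (limma, SE 0.17, adjusted p = 9.5e-04). Smaller increases were those of *alp21*, cofactor E (0.53, SE 0.15), and *alp11*, cofactor B (0.50, SE 0.13), which were lost without replicate 2 at 25°C, and for *alp21* also without replicate 3 at 36°C. The decrease of *alp31*, cofactor A (-0.66, SE 0.21), was lost under 5 of 6 arrays left out in turn, all but replicate 1 at 36°C, and turned to 0.10 after centring and 0.17 after quantile normalization. The other 3 cofactor genes that passed, *alp1*, *alp21* and *alp11*, were higher under all 3 scalings.

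Of 9 actin-related protein genes, 6 were lower, 1 was higher and 2 did not pass, with a median of -1.15. Of all features, 51.9% were lower and 12.1% higher. With the replicate number as a block 7 were lower, *arp3* being added, where 1721 of the 2919 features were, against 1514 without it. The lower genes included *arp42* (-3.02), *arp5* (-2.82) and *alp5* (-2.58), which act in chromatin remodelling complexes. The higher gene was *arp1*, of the dynactin type, with a signal of 71.6 ± 7.0 (SD, n = 3) at 25°C, against 3546.5 ± 1168 at 36°C. Of 10 WD-repeat protein genes, there were 3 higher, 2 lower and 5 that did not pass, with a median of -0.14. With the replicate block 3 were lower, *gnr1* being added. The signals of *gnr1* were low and overlapped, at 44.7 to 81.3 at 25°C and 28.4 to 54.4 at 36°C. The background was at most 21.3. The WD-repeat genes with the largest changes were *git5* (G protein beta subunit, 2.31), *tup11* (corepressor, 1.32), *pop1* (F-box protein, 1.00) and *tup12* (corepressor, -0.90). The call of *tup12* was lost without replicate 2 or 3 at 25°C or replicate 2 at 36°C, and neither lower call among the WD-repeat genes held after centring or quantile normalization.

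Among other chaperone genes, increases outnumbered decreases. The mitochondrial chaperonin is the relative of CCT in that organelle, and its genes *mcp60* (0.08, SE 0.15) and *hsp10* (0.07, SE 0.10) did not pass the test on the deposited scale. Their signals were over 10000 on all arrays, and after centring both were higher, at 0.85 and 0.84. Of 12 genes of the cytosolic Hsp70 and Hsp90 system 10 were measured, of which 4 rose, 1 fell and 5 did not pass, with a median of 0.14. The Hsp70 gene *ssa1* (3.00), *psi1* (2.12), *cdc37* (1.01) and *hsp16* (0.72) were higher. Of these, *hsp16* is a small heat shock protein gene that was counted in this list. The lower gene was *zuo1*, whose product is a J protein at the ribosome, at -0.52 (limma, SE 0.09, adjusted p = 0.0036), but at 0.25 without passing after centring. With the replicate block *sti1*, an Hsp90 co-chaperone gene, was lower as well (-0.70). Then 2 of the list were lower, where 1721 of the 2919 features were. Over all lists, 15 of 44 measured genes were lower and 11 higher, or 8 and 24 after centring. Of all features, 51.9% were lower and 12.1% higher, or 34.5% and 39.6% after centring. A difference between the lists and the subunits or all features was not tested.

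**Figure D5:**
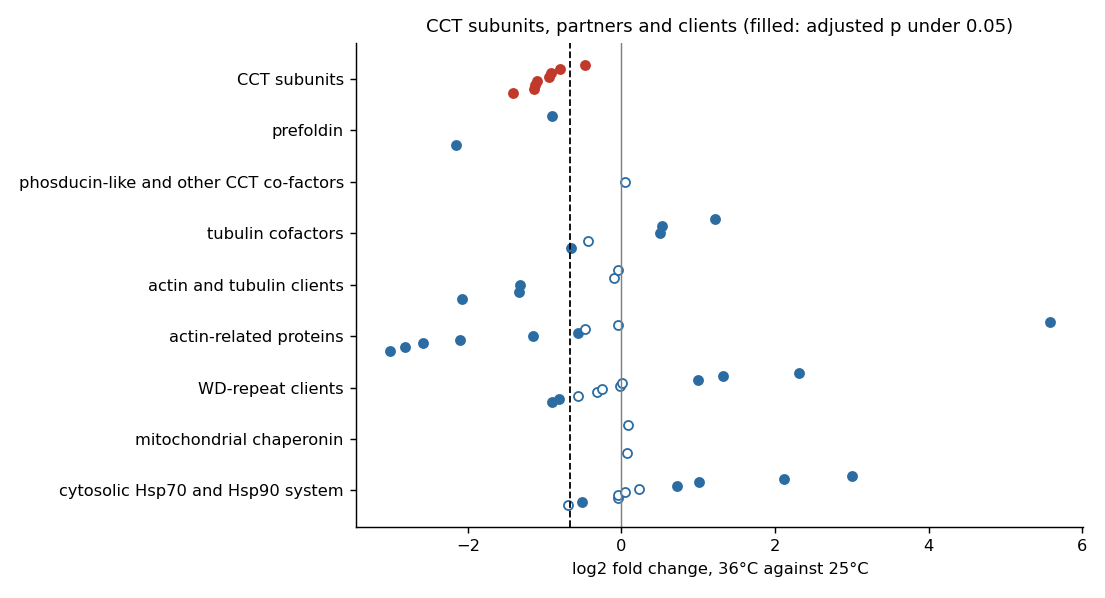
Log2 fold change (36°C against 25°C, deposited scale) of the CCT subunits (red) and of each measured gene of the partner, client and chaperone lists (blue), filled where the adjusted p from limma was under 0.05, with the median of all features (-0.66) dashed. The 8 subunits span -1.41 to -0.48, whereas the other lists with more than 2 genes, other than the actin and tubulin clients, hold genes that moved in both directions.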

How the data were processed

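Signals came from 6 GeneChip Yeast Genome 2.0 arrays of total RNA. The deposited values are signal intensities on a linear scale, 1 per probe set and array, which the authors computed with GCOS using default settings and global scaling. The scaling target is not given in the sources used here, and no detection calls were used. Genes came from the platform annotation: 2917 probe sets named 1 *S. pombe* gene and 20 several, and 5177 unnamed probe sets entered only an alternative test. Probe sets of a gene were averaged on the log2 scale, with 6 values below 1 set to 1 and no filter on dim features. The test between temperatures was two-sided and without a block, by lmFit and eBayes of limma 3.58.1 (R 4.3.3), with Benjamini-Hochberg adjustment over 2919 features. The planned spike-in scaling used 9 probe sets. The balance of each subunit against the others was tested with exact permutation tests (scipy 1.17.1, Python 3.11.15). Precision is limited by how many arrays there are.

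Members and lists were chosen with earlier results of these data known. All subunits are named. List genes are named where they passed the test, up to 4 per list by size of change, and *act1* and the tubulin genes always. The 5 genes most like the subunits were taken by Pearson correlation. The genes *txl1*, *mcp60*, *hsp10*, *zuo1*, *arp3*, *gnr1*, *sti1* and the neighbouring genes fall outside this rule and were chosen after their values were seen.

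For each replicate number, the deviations of its arrays from the mean of their temperature were correlated (r = 0.54 for number 1, 0.45 for number 2 and 0.43 for number 3, all over 0.1), and from these correlations alone the replicate numbers were taken to pair the arrays. Replicate 2 at 25°C correlated slightly more, at 0.48, with replicate 3 at 36°C. Alternatives were other scalings, an offset, filters, moderation, the replicate block and each array left out, and 2 on the label scheme of replicate 1 were chosen after seeing the data.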

Additional observations from a re-analysis of the deposited data

Results flagged for a closer look

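Signal was also present in data outside the comparisons: 2068 of the 5177 unnamed probe sets were above background on all 6 arrays. Genes without a named probe set were not analysed here.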

How the results depend on the processing

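The 8 subunits gave 136 values under 17 alternatives, of which 127 kept direction and call, 8 lost the call and 1 changed sign. The alternatives with other filters, moderation or a block cannot move the log2 fold changes of the subunits and bear only on the calls. Centring each array on its median left 3 subunits lower and a median of -0.26, turned *cct8* to 0.28, and gave 8 list genes lower and 24 higher against 15 and 11. Quantile normalization left 8 lower with a median of -0.70. Leaving out each array in turn gave 6 to 8 subunits lower, 0 higher, and medians of -1.13 to -0.95. It gave 10 to 16 list genes lower and 9 to 11 higher, with 10 lower without replicate 3 at 25°C. Of all 2919 features, 1307 to 1551 were lower and 275 to 455 higher in these fits, with medians of -0.77 to -0.53. Between 5 and 7 subunits were then without overlap in their balance. Leaving out an array cannot create an overlap, so a count under 5 could not occur. The lost calls were *cct1* and *cct8* without replicate 2 or 3 at 25°C, and *cct1*, *cct2*, *cct4* and *cct6* after centring. With the replicate number as a block all 8 subunits were lower (median -1.02), 1721 features were lower and 466 higher, and the block changed no call among the subunits, but it added 3 lower list genes (18). Among the lists, WD-repeat genes went from 3 higher and 2 lower to 5 and 0 after quantile normalization and 7 and 0 after centring, and the Hsp70 and Hsp90 system from 4 and 1 to 8 and 0 after centring, or 4 and 2 with the replicate block. All features went from 354 higher and 1514 lower to 883 and 990 after quantile normalization and 1155 and 1007 after centring. The causes were not tested. The lowest subunit signal was 2234, against a background of at most 21.3.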
